A study of Mus musculus with 37 samples.

Results

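The genes described here encode the general RNA polymerase II transcription machinery and its close relatives. They were chosen by name from the protein-coding genes of the 4 RNA-seq tables, as the Polr2 and Polr3 subunits with the suffix letters a to l, the Gtf2 factors, and the Taf, Med, Supt and Nelf families with a numbered or lettered member name. The rule found 102 genes among the 29294 genes listed in any table. Of these, 97 were listed in all 4 tables, and each table listed 102 (ZH GV oocytes), 101 (CabZ GV oocytes), 102 (CabZ 2-cell embryos) or 97 (Zscan4 injection). This choice of the 102 genes by name used no measured value.

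RNA polymerase II makes messenger RNA. It is placed at a start site by the general factors TFIIA, TFIIB, TFIID, TFIIE, TFIIF and TFIIH, receives signals from activators through Mediator, and is held and released near the start by NELF and DSIF. RNA polymerase III makes transfer RNA and other short RNAs, and a few small subunits are common to polymerases I, II and III. A growing oocyte stores transcripts and then falls silent at the germinal vesicle (GV) stage, and the mouse embryo starts its own main wave of transcription as a 2-cell embryo, so this machinery is carried over from the oocyte and then made anew.

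The study used C57BL/6 mice in which Zp3-Cre, active in growing oocytes, deleted floxed Hira (ZH) or floxed Cabin1 (CabZ), 2 subunits of the chaperone complex for histone H3.3. KO oocytes came from females with both alleles floxed and Het oocytes from females with Zp3-Cre and 1 floxed allele, so that Het and KO share the Cre. RNA-seq was available for ZH GV oocytes, CabZ GV oocytes and CabZ 2-cell embryos, with 4 Het and 4 KO libraries each. A last set of 2-cell embryos came from wild-type GV oocytes that received Zscan4d RNA (Zscan4, 3 libraries) or GFP RNA (gfp, 4 libraries), and which were matured in vitro and activated without sperm. ATAC-seq peaks were available for 3 Het and 3 KO libraries of CabZ GV oocytes. The paper studied CabZ embryos both after fertilisation and after activation without sperm. Its main text does not state which of these gave the CabZ 2-cell libraries. Females were superovulated with pregnant mare serum gonadotrophin before fully grown oocytes were isolated. The ages of the females were not given. The methods state that several oocytes were pooled per library, whereas a sample protocol speaks of individual cells, and no label ties a library to 1 female, so the p-values below measure only the spread between these libraries.

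Levels are given as reads per 1000000 reads (RPM). In the CabZ tables the total is the reads on the listed genes, and in the ZH and Zscan4 tables it is the authors' own total, of which the listed genes took 74.2 to 74.7% in ZH Het, 66.0 to 68.2% in ZH KO and 65.6 to 68.1% in the injected embryos. The deposited values are normalized, so reads on genes were estimated by taking the commonest low value as 1 read. Of the low values, 83.1 to 88.8% per library came within 0.1 of a whole read. The estimates ran from 8994821 to 15077335 per ZH library, from 9113585 to 12465686 per CabZ GV library and from 5818644 to 8237688 per CabZ 2-cell library. Injected libraries had 9884085 to 21864400. By these estimates every KO library of CabZ 2-cell embryos was shallower than every Het library, with at most 6329164 reads against at least 7945349. A level is relative to the whole library, so a change in the RNA of a gene cannot be told apart from a change in the rest of the RNA. A fold change is the KO minus Het (or Zscan4 minus gfp) difference of log2(RPM + 1), with its standard error (SE) and the Benjamini-Hochberg adjusted p of limma over all genes tested in that table. A gene was said to rise or fall where that p was under 0.05, and was tested where its mean was at least 5 RPM.

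Cabin1 itself fell in CabZ KO oocytes from 14.1 ± 3.69 to 2.86 ± 1.98 RPM (mean ± SD, n = 4 each; log2 -2.06), and in CabZ KO 2-cell embryos from 38.1 ± 11.6 to 15.9 ± 5.88 (log2 -1.25). Hira was too low in ZH oocytes to check that label, at 0.624 ± 0.498 in Het and 0.353 ± 0.384 in KO (n = 4 each). Cabin1 also fell in ZH KO oocytes, and Hira fell in CabZ KO 2-cell embryos but was below the limit for testing in CabZ GV oocytes. Cabin1 was at 33.8 ± 4.85 in ZH Het and 10.2 ± 2.07 in ZH KO oocytes (log2 -1.645), and Hira at 21.8 ± 3.25 in CabZ Het and 4.05 ± 1.83 in CabZ KO 2-cell embryos (log2 -2.26), so a fall of Cabin1 was not particular to the CabZ line.

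In CabZ KO 2-cell embryos, 45 of 94 tested members fell and 11 rose. The share that fell was 47.9%, beside 27.7% of all 11151 genes tested, and the share that rose was 11.7%, beside 27% of all genes. The median log2 fold change was -0.73 for the members and -0.02 for all genes. The 5 subunits common to the polymerases all fell, as did 6 of the 9 tested RNA polymerase III subunits and 6 of the 9 subunits of the Mediator middle. With all libraries shifted to 1 median, Polr2f and Med1 no longer passed, which left 4 of the 5, 6 of the 9 and 5 of the 9. The members that rose included both parts of TFIIA with its germ-cell paralogue, and 4 TFIID subunits, of which Gtf2a1 and Taf13 did not keep the call without single libraries, as given below. Changes past 2-fold were found for 41 members (34 lower and 7 higher), or 43.6%, beside 46.4% of all genes.

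The start-site sequences of the common subunits, and of the paralogues Taf9 and Taf9b that moved in opposite directions, are shown as examples. These 7 genes were picked with their fold changes known. Each is the 120 bases before the start site of the gene in the CabZ tables, read 5′ to 3′ on the strand of the gene from the GRCm38.p6 genome of RefSeq. Capitals mark a GC box, which is the only motif of those searched that was found in these 7 windows. The ZH and Zscan4 tables give the same start for 6 of the genes and start Polr2f downstream, at position 79141351.
Polr2e, chr10:80039796-80039915, minus strand: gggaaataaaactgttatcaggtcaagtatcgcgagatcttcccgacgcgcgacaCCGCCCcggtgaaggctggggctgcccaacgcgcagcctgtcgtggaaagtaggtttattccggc
Polr2f, chr15:79140889-79141008, plus strand: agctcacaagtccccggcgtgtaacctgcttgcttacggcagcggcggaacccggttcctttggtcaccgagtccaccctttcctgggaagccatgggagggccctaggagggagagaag
Polr2h, chr16:20717545-20717664, plus strand: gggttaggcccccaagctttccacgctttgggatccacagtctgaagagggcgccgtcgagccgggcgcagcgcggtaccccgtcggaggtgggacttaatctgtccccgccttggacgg
Polr2k, chr15:36173890-36174009, plus strand: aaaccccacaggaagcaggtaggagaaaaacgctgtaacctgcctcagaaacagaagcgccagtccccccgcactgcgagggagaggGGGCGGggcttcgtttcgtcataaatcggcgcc
Polr2l, chr7:141475133-141475252, minus strand: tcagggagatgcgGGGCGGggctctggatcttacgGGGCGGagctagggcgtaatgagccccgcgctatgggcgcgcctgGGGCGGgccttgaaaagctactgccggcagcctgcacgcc
Taf9, chr13:100651459-100651578, plus strand: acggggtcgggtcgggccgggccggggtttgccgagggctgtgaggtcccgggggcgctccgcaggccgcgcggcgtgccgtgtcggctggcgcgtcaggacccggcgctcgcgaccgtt
Taf9b, chrX:106221159-106221278, minus strand: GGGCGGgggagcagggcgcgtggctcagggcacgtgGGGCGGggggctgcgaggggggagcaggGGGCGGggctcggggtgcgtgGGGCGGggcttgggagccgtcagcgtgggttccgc

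Over both strands of these windows, the GC box (letters GGGCGG) was present in 54 of 101 members, or 53.5%, and in 41.5% of 14118 protein-coding genes. The core of the site of ETS factors (CGGAAG) was present in 31 members, or 30.7%, and in 14.9% of genes. The CCAAT box (CCAAT) was present in 24.8% of members and 24.5% of genes, and the TATA box (TATAAA) in 3.96% and 3.87%. These are matches of letters and not sites of binding.

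Polr2k encodes the smallest of the common subunits and gave the largest fall of all members. Its levels in the 4 Het libraries were 36.7, 43.3, 58.2 and 41.5 RPM, and in the 4 KO libraries 4.58, 4.79, 11.0 and 3.61. The groups did not overlap, and KO replicate 3 was the highest of the KO libraries. The mean was 7.49 times lower in KO (log2 -2.80, SE 0.33, adjusted p = 0.0002172). Polr2e, another common subunit, gave 164.2, 217.2, 261.7 and 168.5 in Het and 25.2, 26.5, 45.8 and 29.9 in KO, without overlap (log2 -2.65, SE 0.28, adjusted p = 0.000144). Polr2h, also common to the polymerases, gave 337.5, 414.3, 486.6 and 404.4 in Het and 87.9, 112.2, 110.8 and 45.0 in KO. Every KO library of Polr2h lay below every Het library (log2 -2.27, SE 0.32, adjusted p = 0.0004244). Polr2l and Polr2f fell by less, with log2 -1.12 and -0.82, and Polr2f was at -0.64 (adjusted p = 0.05469) with the libraries shifted to 1 median. The 5 genes together took 1656 to 2406 RPM in Het and 701.1 to 853.3 in KO.

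Of the subunits that belong to RNA polymerase II alone, 4 of 7 fell. Polr2b, the second-largest subunit, fell from 67.9 ± 18.5 to 27.9 ± 11.3 (log2 -1.28, SE 0.31), and Polr2d and Polr2g, which form the stalk, had log2 fold changes of -1.27 and -0.84. Polr2j, a small subunit of the core, rose, from 1236, 1621, 1954 and 1611 to 2433, 2130, 2437 and 2709 (log2 0.61, SE 0.24, adjusted p = 0.04985). This call was at the edge of the threshold, and was lost with a pseudocount of 0.25, without the filter, with the replicate block and without any single library but Het replicate 3 (log2 0.49 to 0.71 without single libraries). It was also the member with the highest level per kilobase of exon in these embryos, at 1451 RPM and kilobase in Het, ahead of Polr2d at 579.4 and Supt4a at 567.2. Polr2a, the catalytic subunit, did not pass the test, at 18.4 ± 12.2 in Het and 9.49 ± 5.08 in KO (log2 -0.83, SE 0.54, adjusted p = 0.214).

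All 9 tested RNA polymerase III subunits had a negative fold change (median log2 -1.27). Among those that fell, Polr3d lost the call without Het replicate 2 or 3 or KO replicate 2 or 3. Polr3a, the catalytic subunit, gave 37.2, 35.1, 29.7 and 59.1 in Het and 19.0, 14.7, 18.3 and 10.7 in KO (log2 -1.29, SE 0.29, adjusted p = 0.004308), and the groups did not overlap. Polr3g, an alternative form of a subunit that is abundant in early embryonic cells, fell from 81.6 ± 21.5 to 33.7 ± 10.0 (log2 -1.27), while its paralogue Polr3gl was below the limit for testing in both groups.

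Mediator was counted by its parts. The middle had 6 lower and 0 higher members of 9 (median log2 -1.15), the head 3 lower and 1 higher of 9, the tail 2 lower and 1 higher of 7, and the kinase module 0 of 3 in either direction. With the libraries shifted to 1 median, the head had 2 lower and 2 higher, and the kinase module 0 lower and 1 higher. Med29, of the tail, gave 392.7, 743.0, 675.2 and 492.7 in Het and 133.3, 94.8, 140.8 and 32.3 in KO (log2 -2.66, SE 0.45, adjusted p = 0.0009767). Med8, of the head, fell from 99.0 ± 51.5 to 20.9 ± 8.32 (log2 -2.11), and Med7, of the middle, from 467.4 ± 60.1 to 123.8 ± 46.8 (log2 -1.97). None of these 3 genes overlapped between the groups. Med28, of the head, rose from 563.4 ± 88.7 to 1112 ± 175.2 (log2 0.98, SE 0.24, adjusted p = 0.00608). Med14, the backbone of the complex, did not pass the test (log2 -0.70, SE 0.32, adjusted p = 0.08603), and Med1 fell at the edge of the threshold (log2 -0.63, SE 0.25, adjusted p = 0.04981), a call that was lost without any of the 8 libraries.

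Among the general factors, TFIIA moved against TFIIF and TFIIH. Gtf2a1l, the germ-cell form of the large TFIIA subunit, was at 0.251, 1.76, 3.26 and 3.52 RPM in Het, or an estimated 2 to 29 reads per library. In KO it was at 10.8, 8.78, 15.2 and 16.5 (log2 2.23, SE 0.41, adjusted p = 0.001505). Gtf2a2, the small TFIIA subunit, gave 332.5, 219.2, 235.1 and 360.9 in Het and 717.7, 963.4, 894.4 and 1213 in KO (log2 1.73, SE 0.27, adjusted p = 0.0007202). All KO libraries of both genes lay above all Het libraries, and Gtf2a1, the ubiquitous large subunit, rose from 123.6 ± 18.5 to 211.6 ± 49.7 (log2 0.75, adjusted p = 0.02869). Gtf2a1 did not pass without Het replicate 1, 2 or 3 or KO replicate 1 or 2, without the filter or with the replicate block (adjusted p up to 0.07753). The TFIIF subunits Gtf2f1 and Gtf2f2 and the TFIIH subunits Gtf2h1, Gtf2h2, Gtf2h3 and Gtf2h5 fell, with log2 fold changes between -1.54 (Gtf2f2) and -0.97 (Gtf2h1), of which Gtf2f1 and Gtf2h1 lost the call with the replicate block and without Het replicate 2 or 3 or KO replicate 2 or 4, and Gtf2f1 also without KO replicate 3. Gtf2b, which is TFIIB, did not pass the test (log2 0.51, adjusted p = 0.1122), but rose with the libraries shifted to 1 median and with the limma trend. Gtf2ird1, a relative of TFII-I and not part of the core machinery, rose from 17.0 ± 7.72 to 47.4 ± 16.1 (log2 1.46).

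In TFIID, the complex that recognises the promoter, 4 subunits rose and 3 fell of 16. Taf9b gave 116.9, 108.1, 82.1 and 143.9 in Het and 341.8, 374.0, 533.8 and 422.9 in KO (log2 1.89, SE 0.26, adjusted p = 0.0004066). Its paralogue Taf9 gave 89.4, 105.5, 101.1 and 119.3 in Het and 34.4, 47.4, 65.3 and 33.3 in KO (log2 -1.23, SE 0.28, adjusted p = 0.003948). Neither gene overlapped between the groups, and the directions were opposite. Of the exonic bases of Taf9, 73.8% are also exonic in Ak6 on the same strand, so that its level is uncertain. Taf3, which binds methylated histone H3, and Taf6, a histone-fold subunit, rose by log2 1.09 and 1.08, and Taf13 by 0.71. Taf13 did not pass without Het replicate 2, 3 or 4 or KO replicate 2, 3 or 4, without the filter or with the replicate block (adjusted p up to 0.1189). Taf7 and Taf2 fell, with log2 -1.09 and -0.78, and Taf2 did not pass with the libraries shifted to 1 median. Taf1, the largest subunit, did not pass the test (log2 -0.94, SE 0.39, adjusted p = 0.06126), and Taf4 (log2 -0.00) and its gonadal paralogue Taf4b (-0.23) did not either.

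The remaining groups moved mostly downwards. SAGA, which shares subunits with TFIID, had 3 lower members of 4, with Taf5l at log2 -1.35, Supt7l at -1.09 and Taf6l at -0.75. Of their paralogues within TFIID, Taf5 did not pass the test (-0.50) and Taf6 rose. The SL1 subunits, which serve RNA polymerase I, had 2 lower members of 3, Taf1b (log2 -2.35) and Taf1d (-0.93). NELF had 2 of 3, with Nelfe at 17.5, 23.7, 58.9 and 28.6 in Het and 10.6, 0.479, 4.58 and 12.4 in KO (log2 -2.33, SE 0.65, adjusted p = 0.01197). Supt4a, the small subunit of the pausing factor DSIF, fell from 534.3 ± 95.7 to 146.3 ± 27.0 (log2 -1.86, SE 0.25), and its partner Supt5 from 15.3 ± 5.37 to 7.45 ± 3.79 with overlapping libraries (log2 -0.99, adjusted p = 0.04077). The calls of Supt5, Taf5l and Taf6l were lost when single libraries were left out, Supt5 without Het replicate 1 or 2 or KO replicate 2, 3 or 4, Taf5l without Het replicate 1 or 3 or KO replicate 1, and Taf6l without any library but Het replicate 1. Supt16, of the histone chaperone FACT, did not pass the test (log2 0.72, SE 0.33, adjusted p = 0.08788). It rose with the libraries shifted to 1 median, where DSIF, Spt6 and FACT together had 1 higher and 1 lower member of 4.

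**Figure D1:**
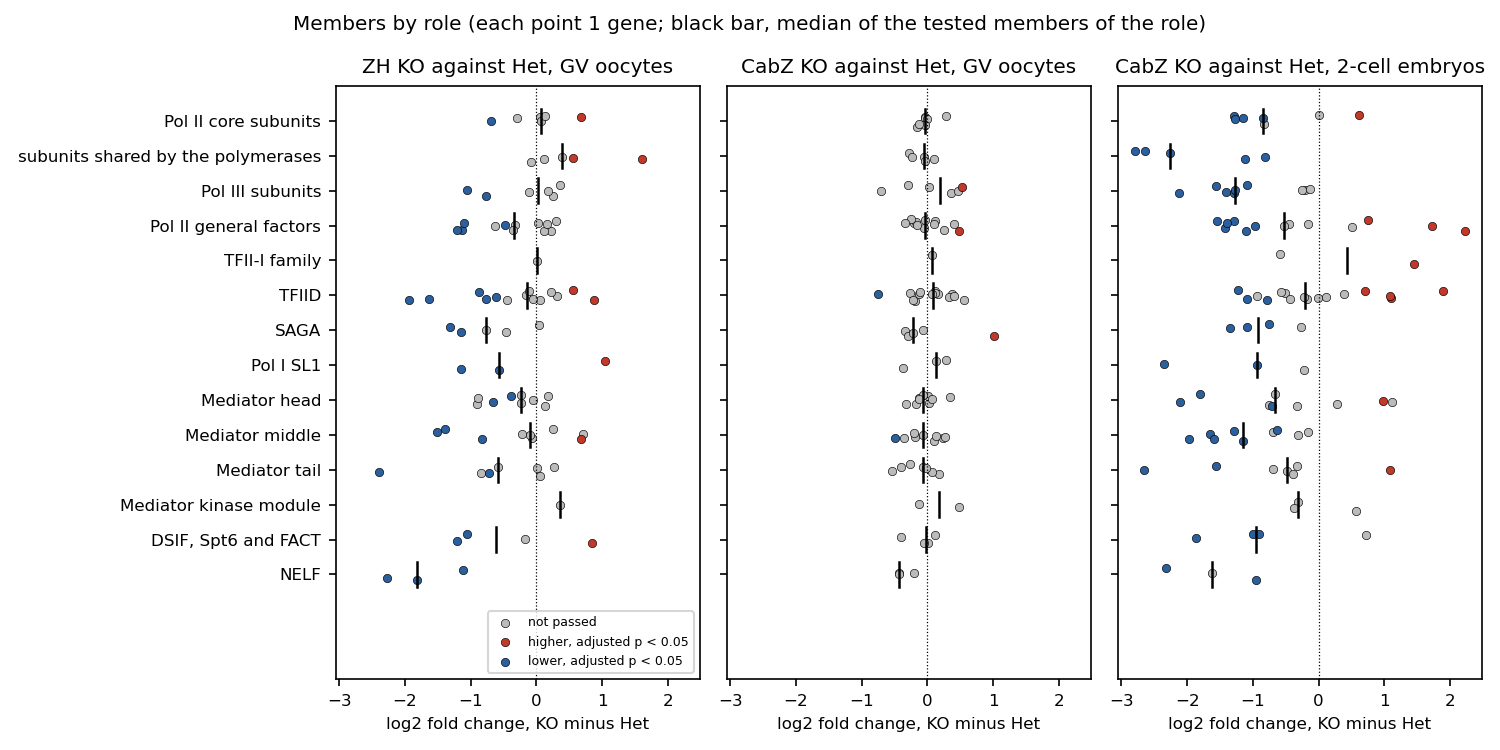
The log2 fold change of KO against Het (horizontal axis, on log2(RPM + 1)) of each tested member, 1 point per gene and 1 line per role, with a black bar at the median of the role. In CabZ 2-cell embryos the shared subunits (median -2.27), NELF (-1.62) and RNA polymerase III (-1.27) stand left of 0, whereas in CabZ GV oocytes the role medians lie between -0.43 and 0.19.

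A list of 62 other genes of the transcription machinery, which the choice by name left out, gave 33 lower and 1 higher gene of 59 tested in CabZ KO 2-cell embryos (55.9% lower, beside the same 27.7% of all genes). RNA polymerase I subunits fell in 7 of 8 cases and RNA polymerase III factors in 10 of 15. Polr1e, of RNA polymerase I, fell from 205.3 ± 41.8 to 18.9 ± 15.0 (log2 -3.79), Gpn3, which helps bring RNA polymerase II into the nucleus, from 121.1 ± 33.9 to 16.5 ± 11.5 (-3.04), and Gtf3c5, of the factor TFIIIC, from 35.1 ± 5.18 to 3.95 ± 1.97 (-2.95). The gene that rose was Tbpl2, the TATA-binding protein of the oocyte, from 5.20 ± 3.71 to 67.7 ± 9.55 (log2 3.68, SE 0.42, adjusted p = 0.0002094), while Tbp fell (log2 -1.19).

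Oocyte and somatic markers moved with these counts. Of 9 tested oocyte markers 7 rose, and their sum was 610.7 to 788.4 RPM in Het and 1560 to 3425 in KO. All 3 tested granulosa and cumulus markers rose (8 of the list of 10 were listed), from a sum of 8.66 to 18.6 to a sum of 50.2 to 60.9. Of 8 markers of the 2-cell embryo 1 rose and 1 fell, with sums of 1754 to 3014 and 1747 to 4751, and none of the markers in these lists was at 0 in every library. The part of these markers, and of the lower estimated depth of the KO libraries, in the result was not tested. When all libraries were shifted to 1 median, which moved the median of all genes from -0.02 to 0.15, 38 members fell and 15 rose, with a member median of -0.55. Without Het replicate 2 the counts were 36 lower and 7 higher. Of the 56 calls, 42 were kept whichever single library was left out.

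The GV and 2-cell tables were scaled separately, so the change from GV oocyte to 2-cell embryo was described and not tested. The Smart-seq2 kit captures mRNA before it is amplified. Whether a ratio between the stages reflects RNA made, RNA lost or RNA captured to a different extent was not tested. It was counted where the libraries of the stages did not overlap and the means differed by over 2-fold, on RPM of the genes that both tables list. In CabZ Het, 24 of 93 members (25.8%) were higher in 2-cell embryos and 23 (24.7%) lower, beside 30% and 31.4% of 10477 genes. In CabZ KO, 15 of 92 (16.3%) were higher and 39 (42.4%) lower, beside 27.2% and 27.4% of 10684 genes. The member medians of the log2 ratio were 0.04 in Het and -0.58 in KO (all genes -0.04 and -0.01). The Het 2-cell libraries and the KO 2-cell libraries also stand in the genotype comparison above, so the counts are not separate evidence of it.

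Of the 24 members that were higher in Het 2-cell embryos, 12 were also higher in KO, which is 50%, against 66.7% of all genes, and the other 12 were neither higher nor lower. Of the 23 that were lower in Het, 18 were lower in KO (78.3%, against 62.3% of all genes). Of 45 that were neither in Het, 21 were lower in KO (46.7%, against 20.9%).

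Polr2h had the highest ratio of the compared members in Het, and Polr3g in KO. The Het oocytes had 11.0, 15.9, 9.27 and 9.63 RPM of Polr2h and the Het embryos 344.3, 424.8, 497.7 and 413.9, a ratio of 36.7. Its KO oocytes had 9.59, 10.7, 16.6 and 12.2 and its KO embryos 90.0, 114.9, 112.7 and 45.6, a ratio of 7.41. The oocytes of the genotypes overlapped and the embryos did not. Polr2f, another common subunit, was 7.01 times higher in Het embryos than in Het oocytes and 4.65 times higher in KO. Polr2k did not change by 2-fold in Het (70.1 ± 7.62 to 46.0 ± 9.50) and was 11.1 times lower in KO embryos than in KO oocytes (67.9 ± 11.7 to 6.12 ± 3.44). Polr2e was likewise neither in Het and 2.75 times lower in KO.

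**Figure D2:**
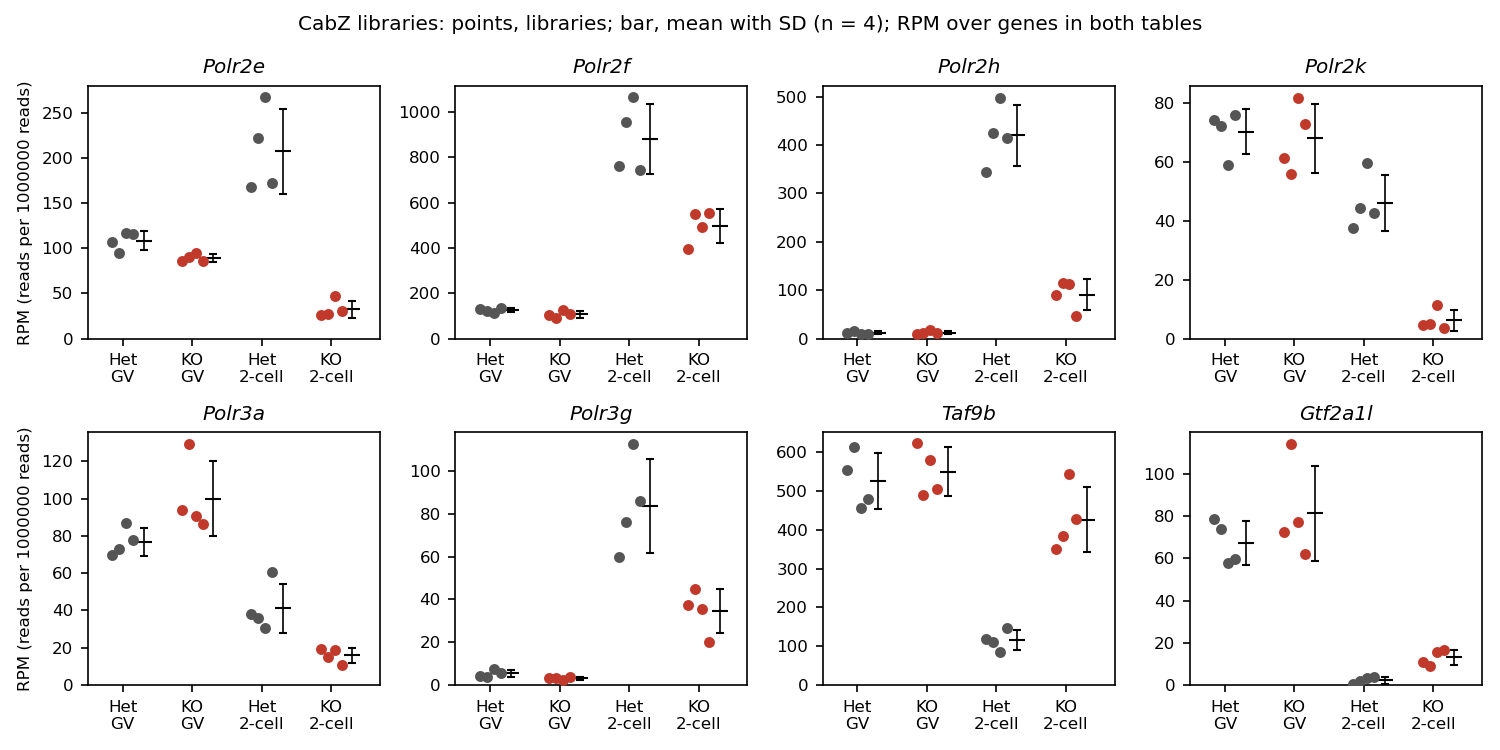
RPM over the genes that both CabZ tables list (vertical axis, from 0) of 8 members in Het and KO GV oocytes and in Het and KO 2-cell embryos, with 1 point per library and a bar for the mean with its SD (n = 4 per group). The KO embryos of Polr2k lie between 3.66 and 11.2 and its Het embryos between 37.5 and 59.5, whereas the KO embryos of Taf9b lie between 349.8 and 543.2, its Het embryos between 83.9 and 147.3, and its oocytes between 455.2 and 624.0.

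RNA polymerase III had 5 members higher and 0 lower of 9 in Het, and 1 higher and 2 lower of 9 in KO. Polr3g was 15.4 times higher in Het embryos than in Het oocytes (5.42 ± 1.64 to 83.5 ± 22.1) and 10.9 times higher in KO. Polr3e, a peripheral subunit, was 15.97 times higher in Het, from 0.844 ± 0.189 to 13.5 ± 8.27. Its KO oocytes had 1.40, 6.76, 1.15 and 1.43 and its KO embryos 9.28, 13.7, 6.43 and 13.2. The KO stages overlapped only through oocyte replicate 2. Polr3a, the catalytic subunit, was neither in Het and lower in KO. All 3 compared members of the Mediator kinase module were higher in Het, among them Med13 (8.91 times, from 12.2 to 109.0) and its paralogue Med13l (2.19 times), and Med12 was too low to be compared. In contrast, 6 of the 9 Mediator head members were lower in Het and 6 in KO, with Med17, of the head, 8.15 times lower in Het and 15.6 times lower in KO. Taf1d, of SL1, was 15.3 times higher in Het and 7.12 times in KO, whereas Taf1a and Taf1b, of the same complex, were lower in both genotypes.

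The genes that were lower in Het embryos than in Het oocytes included some with a smaller ratio in KO. Gtf2a1l had 78.5, 73.7, 57.7 and 59.5 RPM in Het oocytes and 0.256, 1.80, 3.33 and 3.601 in Het embryos, 30.0 times lower, and 72.6, 114.0, 77.1 and 62.2 in KO oocytes and 11.0, 8.99, 15.4 and 16.7 in KO embryos, 6.25 times lower. Taf9b was 4.56 times lower in Het embryos (525.7 ± 71.9 to 115.3 ± 26.1) and neither in KO (549.9 ± 63.0 to 426.2 ± 84.4). Supt3, of SAGA, gave nearly equal ratios of 11.3 and 11.5 times lower in Het and KO. Taf8, a TFIID subunit, was 4.66 times lower in Het and 3.99 times in KO.

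**Figure D3:**
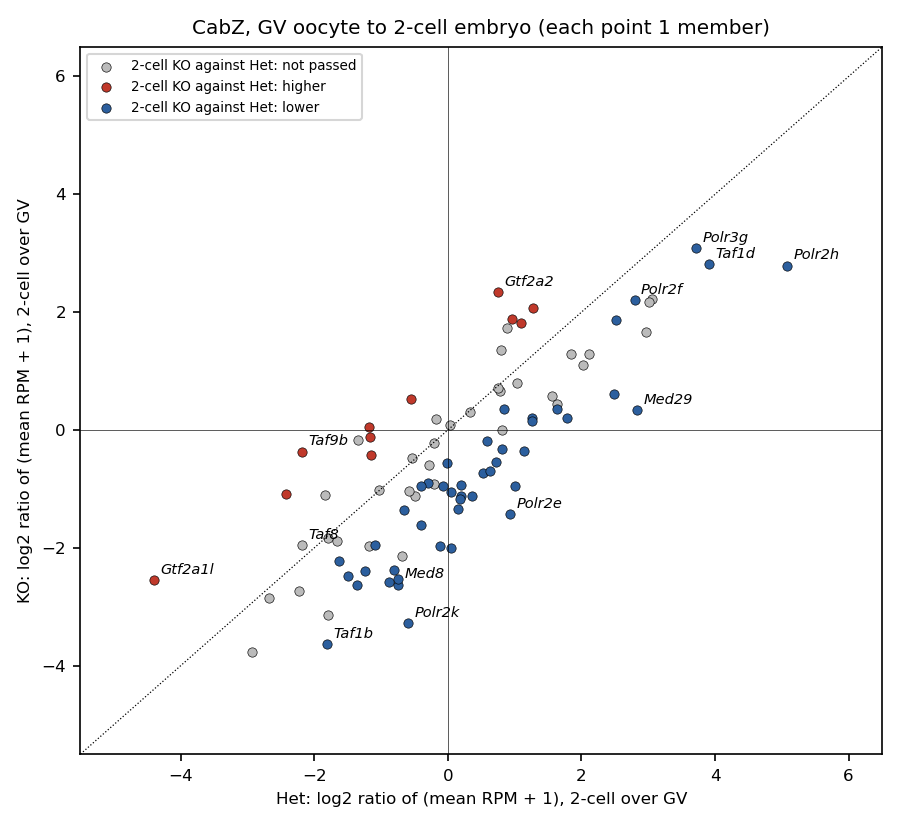
The log2 ratio of the 2-cell mean over the GV mean (each + 1 RPM) in CabZ Het (horizontal axis) and in CabZ KO (vertical axis), 1 point per member. Points below the diagonal have a lower ratio in KO, among them Polr2k (11.1 times lower in KO) and Polr2h (7.41 times higher in KO, both ratios without the added 1 RPM), and Taf9b lies above it.

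In CabZ GV oocytes few members differed between the genotypes. Of 87 tested, 3 rose (3.45%) and 2 fell (2.299%), beside 9.01% and 6.03% of 9523 genes, and the median was -0.05 (all genes -0.02). Supt20, which joins SAGA together, gave 299.7, 298.0, 281.5 and 270.2 in Het and 559.7, 499.7, 603.5 and 663.7 in KO (log2 1.01, SE 0.14, adjusted p = 0.0006074), and was the 1 member past 2-fold (1.15%, beside 5.01% of all genes). Taf8, a TFIID subunit, gave 167.8, 170.4, 183.3 and 149.2 in Het and 113.4, 94.8, 94.3 and 93.7 in KO (log2 -0.75, SE 0.14, adjusted p = 0.003158). Neither gene overlapped between the groups. Polr3c (log2 0.53) and Gtf2b (0.48) rose and Med31, of the Mediator middle, fell (-0.50), also without overlap.

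The calls of Supt20 and Taf8 were kept under every alternative in which they were tested. The other calls were not, although their log2 fold changes kept their direction, at 0.46 to 0.59 (Polr3c), 0.40 to 0.55 (Gtf2b) and -0.58 to -0.45 (Med31) when single libraries were left out. Polr3c did not pass without 5 of the 8 libraries (Het replicate 1, 2 or 4 or KO replicate 2 or 4), Gtf2b without 6 (any Het replicate or KO replicate 3 or 4) and Med31 without 7 (all but KO replicate 3). All 3 also did not pass with the replicate block, and Gtf2b and Med31 with the libraries shifted to 1 median. Supt20 was under 2-fold without Het replicate 3 or 4 or KO replicate 3 or 4. The common subunits, which all fell in the 2-cell embryos, had 0 calls of 5 in these oocytes (median log2 -0.06, between 429.4 and 625.0 RPM in sum over the 8 libraries). Of the 3 tested granulosa and cumulus markers 2 rose, from a sum of 43.8 to 57.3 in Het to 84.2 to 128.4 in KO, and the 4 tested markers of the 2-cell embryo rose. Their part in the calls above was not tested.

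The Cabin1 fold change in 2-cell embryos minus that in GV oocytes passed the test of the difference for 45 of 86 members (52.3%, beside 52.6% of 8226 genes), with 34 lower and 11 higher in 2-cell embryos. The directions were not counted over all genes, so the members' split by direction has no such share beside it. The largest differences were those of Polr2k (-2.80 in 2-cell embryos and -0.06 in GV oocytes, adjusted p of the difference 1.15e-05), Med29 (-2.66 and -0.02, 0.000154) and Polr2e (-2.65 and -0.28, 9.82e-06) among the lower ones. Among the higher ones were Gtf2a1l (2.23 and 0.25, 0.0012) and Taf9b (1.89 and 0.07, 8.06e-05).

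In ZH GV oocytes 28 of 85 tested members fell (32.9%, beside 31.7% of 9310 genes) and 8 rose (9.41%, beside 22.9%). The medians were -0.17 for the members and -0.18 for all genes. Changes past 2-fold were found for 19 members (22.4%, beside 28.2%), of which 17 were lower. When every library was shifted to 1 median, which moved the median of all genes to 0.01, 20 members fell and 13 rose, and when it was scaled to the reads on the listed genes 23 fell and 12 rose. The higher members were then 39.4% and 34.3% of the calls in place of 22.2%, and those of all genes 54.9% and 54.0% in place of 41.9%.

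NELF, which holds RNA polymerase II near the start site, fell in all 3 of its tested members. Nelfa gave 110.2, 121.4, 93.4 and 76.3 RPM in Het and 9.23, 43.0, 24.6 and 15.1 in KO (log2 -2.27, SE 0.39, adjusted p = 0.0009138). Nelfe gave 58.7, 49.4, 37.9 and 42.2 in Het and 14.2, 29.2, 17.9 and 25.4 in KO (log2 -1.12, SE 0.24, adjusted p = 0.003394). KO replicate 2 was the highest KO library for both, and the groups did not overlap. Nelfcd gave 21, 18.5, 20.3 and 18.6 in Het and 1.80, 19.9, 2.86 and 4.25 in KO, so that KO replicate 2 lay within the Het range (log2 -1.81, SE 0.51, adjusted p = 0.0126). Supt5 of DSIF fell in the same way, with KO replicate 2 at 15.6 and the other KO libraries at 3.64 to 6.41 against 15.4 to 19.4 in Het (log2 -1.21). Its partner Supt4a rose, from 63.8 ± 8.69 to 116.1 ± 24.0 (log2 0.84, SE 0.19, adjusted p = 0.004281).

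TFIID had 5 lower and 2 higher members of 14, a balance that depended on the scaling. With the libraries shifted to 1 median it had 3 lower and 4 higher, since Taf10 and Taf11 then rose. Scaled to the reads on the listed genes it had 5 lower and 3 higher. Taf3 gave 237.0, 221.7, 206.7 and 209.6 in Het and 49.5, 60.6, 56.6 and 58.8 in KO, a fall with little spread (log2 -1.94, SE 0.14, adjusted p = 5.887e-06). Taf8 fell from 70.8 ± 6.997 to 24.0 ± 11.2 (log2 -1.63, SE 0.29), and Taf5, Taf6 and Taf4 by less (-0.87, -0.77 and -0.62). Taf6 and Taf4 did not pass with the libraries shifted to 1 median or without Het replicate 1, nor Taf6 without Het replicate 2. Taf9 rose from 45.5, 37.2, 40.0 and 39.2 to 65.4, 73.6, 84.7 and 76.2 (log2 0.87, SE 0.15, adjusted p = 0.001029), and Taf9b did not pass the test (log2 -0.12, which changed sign under both other scalings). Taf4b rose with overlapping libraries (log2 0.56), and not without Het replicate 1, 2 or 4 or KO replicate 1 or 3.

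In Mediator, Med15 of the tail gave 61.0, 62.3, 43.9 and 33.8 in Het and 5.51, 22.2, 7.01 and 5.57 in KO (log2 -2.40, SE 0.39, adjusted p = 0.000731), the largest fall among the tested members. Med31 of the middle fell from 70.9 ± 7.82 to 24.5 ± 4.53 (log2 -1.50, SE 0.18), and Med1 with overlap (log2 -1.40, SE 0.44, adjusted p = 0.0222), a call that was lost without Het replicate 1 or 2 or KO replicate 4. Med7 of the middle rose (log2 0.69), and Med14 had a log2 fold change of 0.01 (adjusted p = 0.9762). SAGA had 2 lower members of 5 (Taf6l, log2 -1.32, and Supt7l, -1.15, which did not pass without Het replicate 2), and the general factors 4 lower of 12, with Gtf2f1 at -1.21 and Gtf2a1 at -1.12. Gtf2a1l did not pass the test (log2 -0.63, SE 0.36).

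Polr2h, the common subunit, rose most, with 6.98, 5.76, 7.52 and 7.67 in Het and 34.3, 18.2, 19.5 and 23.3 in KO (log2 1.60, SE 0.21, adjusted p = 0.0001883). Taf1d of SL1 rose from 23.5 ± 4.26 to 51.8 ± 20.2 (log2 1.04), while Taf1a and Taf1b fell (-0.56 and -1.15), Taf1a not under either other scaling nor without any single Het library. None of the libraries of Polr2h or Taf1d overlapped. Among other machinery genes 13 rose and 11 fell of 49, with Tbpl1, a relative of the TATA-binding protein, at log2 2.42 and Ccnh, the cyclin of TFIIH, at 1.95, and Ctr9, of the elongation factor PAF1, at -1.74.

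**Figure D4:**
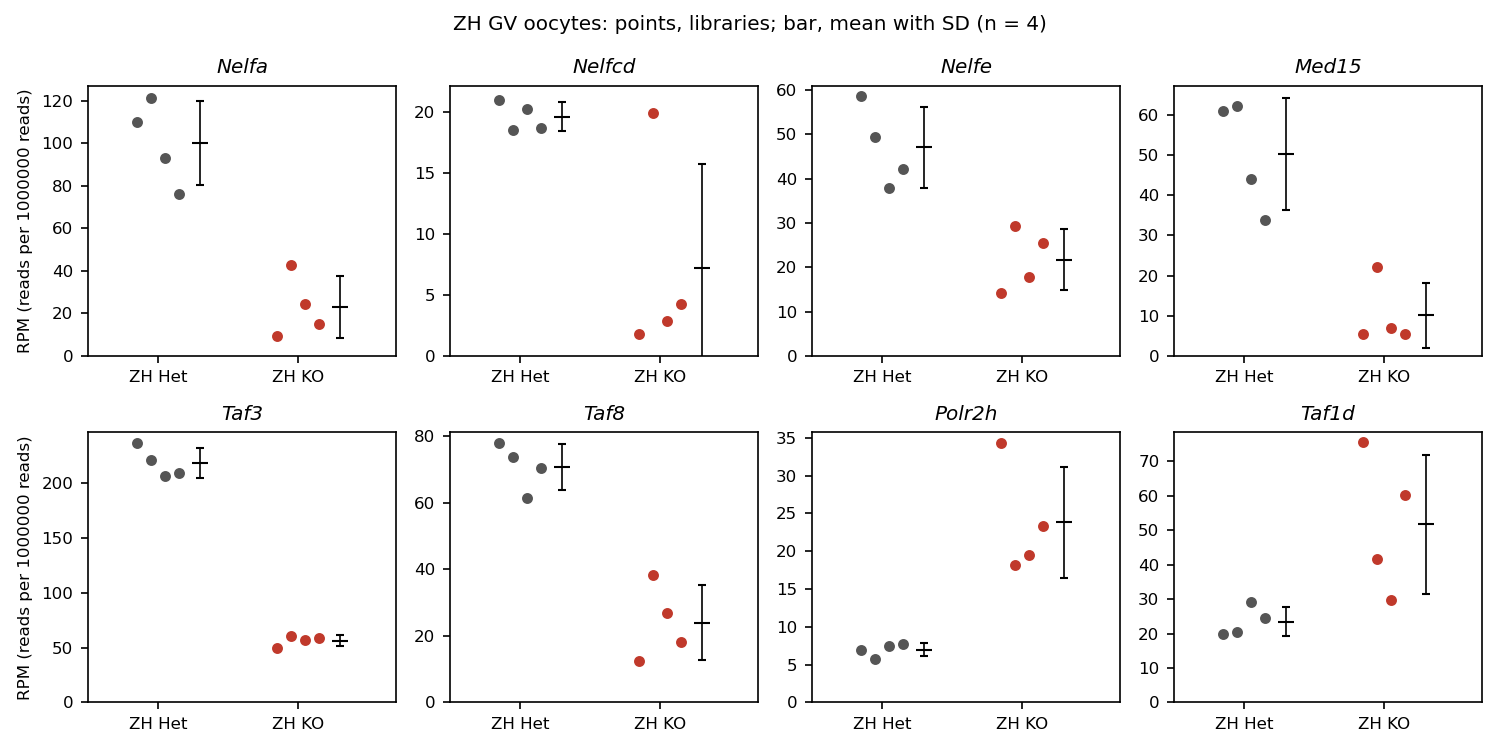
RPM (vertical axis, from 0) of 8 members in ZH Het and ZH KO GV oocytes, with 1 point per library and a bar for the mean with its SD (n = 4 per group). The groups are apart for all but Nelfcd, in which KO replicate 2 (19.9) lies among the Het libraries (18.5 to 21), and its SD bar is cut at 0.

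Markers of the 2-cell embryo moved in these oocytes, since all 5 tested rose, from a sum of 116.2 to 162.3 RPM in Het to 587.8 to 975.7 in KO. Of 10 oocyte markers 4 fell and 1 rose, and the granulosa and cumulus markers had sums of 29.3 to 34.9 in Het and 24.0 to 55.9 in KO, with 0 calls of the 1 tested. Their part in the members' changes was not tested.

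The Hira fold change minus the Cabin1 fold change in GV oocytes passed the test of the difference for 25 of 85 members (29.4%, beside 32.4% of 8718 genes), with 19 lower and 6 higher in ZH. Here too the directions were not counted over all genes. The comparisons share no libraries, but the ZH values are relative to the authors' total and the CabZ values to the listed genes. With ZH also scaled to its listed genes 11 were lower and 9 higher, and with all libraries shifted to 1 median 9 and 9. Taf3 was at log2 -1.94 in ZH and -0.13 in CabZ (adjusted p of the difference 4.83e-05), and Polr2h at 1.60 and 0.09 (0.000836). Med31 fell in both lines, by more in ZH (-1.50 and -0.50, adjusted p 0.00234). Taf8 also fell in both (-1.63 and -0.75), with an adjusted p of the difference of 0.0418 that became 0.0838 with ZH scaled to its listed genes and 0.0956 with the median shift. Supt20 rose in CabZ and did not pass the test in ZH (log2 0.03 in ZH, adjusted p of the difference 0.0162, and 0.0452 and 0.0694 under these scalings).

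After injection of Zscan4d RNA none of 75 tested members passed the test by limma, beside 0.0421% of 7118 genes that rose, 0.899% that fell and 0.941% that passed and were past 2-fold. The smallest adjusted p among the members was 0.106, for Taf2 (4.18 to 5.88 RPM in gfp and 7.65, 17.4 and 11.5 in Zscan4, log2 1.02, SE 0.27). At an unadjusted p under 0.05 there were 9 members (12.0%), beside 19.5% of all genes. Without Zscan4 replicate A, Taf2 passed the test and was past 2-fold, the only member to do so when single libraries were left out. The medians were 0.06 for the members and 0.13 for all genes, and a shift of all libraries to 1 median brought these to -0.07 and 0.00.

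Levels of the 9 members are given as values. Taf1d was at 80.3, 89.8, 60.8 and 79.0 in gfp and 54.9, 25.2 and 40.4 in Zscan4 (log2 -0.98, SE 0.28, adjusted p = 0.119), and Polr2h at 31.5, 39.1, 35.9 and 38.3 and at 22.8, 14.2 and 25.3 (log2 -0.81, SE 0.24, adjusted p = 0.1282). For both genes every Zscan4 library was below every gfp library. Med29, Taf9, Med7 and Med4 had log2 fold changes of -1.28, -0.67, -0.65 and -0.44, and Gtf2ird1 and Gtf2h3 of 0.92 and 0.70. Zscan4 replicate B was the lowest library for Taf1d, Polr2h, Med29, Taf9, Med7 and Med4. Polr2k and Gtf2a1l were below the limit for testing here, at 1.24 and 4.01 RPM in gfp.

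Open chromatin at the start sites was read from the ATAC-seq peaks of CabZ GV oocytes, counted for a member where a peak lay within 500 bases of its start. In Het A, B and C, 15, 27 and 58 of 101 members had a peak (14.9%, 26.7% and 57.4%, beside 11.9%, 24.4% and 44.1% of all protein-coding genes of the table). In KO A, B and C, 23, 7 and 12 members had a peak (22.8%, 6.93% and 11.9%, beside 17.9%, 5.44% and 7.15%). The groups overlapped, since KO A lay above Het A. The number of peaks called in the library went from 43399 to 111327 in Het and from 19160 to 46070 in KO, and the library with the most peaks, Het C, had the most members with one, so that the difference in peak number cannot be told apart from the genotype. The 95% Wilson interval for Het C was 47.7 to 66.6% and for KO B 3.40 to 13.6%, which covers counting error only.

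A peak was present in all 3 Het libraries for 8 members (7.92%, beside 6.51% of all protein-coding genes) and in all 3 KO libraries for 0 (beside 1.27%). No library had one for 32 members (31.7%, beside 46.5%). Gtf2e1, of TFIIE, Nelfcd and Polr3g had a peak in 5 of the 6 libraries, the most of any member. Nelfcd fell in ZH oocytes and Polr3g was 15.4 times higher in Het embryos than in Het oocytes, as given above. Polr2c, Polr3b, Polr3gl and Polr3k, with Gtf2a1l, Med21, Med22, Taf1a, Taf6 and Taf8, had a peak in 4.

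**Figure D5:**
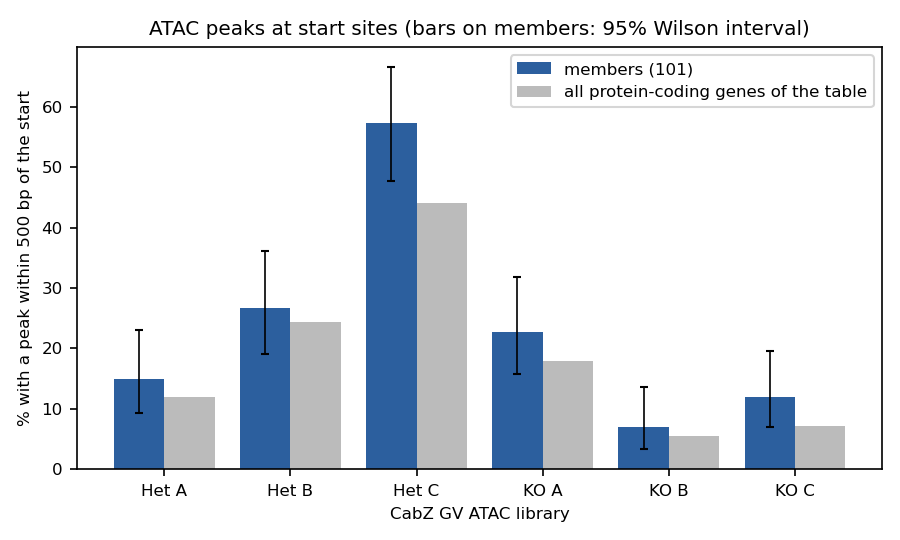
The share of start sites with an ATAC-seq peak within 500 bases (vertical axis, percent) in each CabZ GV library (horizontal axis), for the 101 members (dark bars, with the 95% Wilson interval) and for all protein-coding genes of the table (grey bars). Het C has 57.4% of members and KO B 6.93%, and in each library the members stand above the grey bar, which did not hold in every library with a stricter peak limit or a wider window.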

How the data were processed

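RNA-seq libraries were made with a Smart-seq2 kit and Nextera XT, and the authors aligned the reads with STAR 2.5.3a to mm10 and counted them in Partek Flow. The deposited values of the ZH and Zscan4 tables are FPKM values that the authors divided by the whole gene span. The deposited values of the CabZ tables are a score, which the values show to be divided by the span 2 times and scaled to 1 total. The smallest value of each table, a constant that was added, was subtracted, and every value was multiplied by the gene span (CabZ: by its square) to give reads per 1000000 reads (RPM); CabZ libraries were then scaled to their sum. Strand was not recorded by the kit. ATAC-seq peaks were called by the authors with Bowtie2 2.3 and MACS2 in each library, and the deposited −log10 q was used for a stricter limit of 5.

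Genes with a mean of at least 5 RPM were fitted with limma 3.58.1 (R 4.3.3) on log2(RPM + 1), two-sided, with Benjamini-Hochberg adjustment over all genes of the table. Differences between 2 fold changes were divided by the root of their summed squared standard errors and tested with the summed degrees of freedom. The fit was also run on simulated data, with independent noise for each gene taken from the spread of the control libraries. That setting lacks the shifts between libraries and the depth difference of these data, so it cannot vouch for the calls here. The members and gene lists were chosen with earlier results of these data known, and 2 of the alternatives were added after seeing the data. Under a reporting rule that used the measured values, genes were named where they passed the test without overlap of the groups, up to 8 in each direction. The rule also took the catalytic or central members and paralogue pairs. Members with overlap, or below that rank, that the text names were chosen after their values were seen. Of 102 members, 44 share exonic bases with another gene, and Med10 (92.8%) and Taf9 (73.8%) share over 50%. The single values of 1 member are not reported here.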

Additional observations from a re-analysis of the deposited data

Results flagged for a closer look

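The members that the reporting rule takes in each comparison, in part by their values, were examined in 256 groups of 4 libraries. The other members were not examined. In 18 groups 1 library stood apart from the other 3 relative to the range of the group, and chance gives about 1 in 20. In ZH GV oocytes these were, in RPM, Gtf2a1 in Het replicate 4 (31.5), Gtf2i in Het replicate 1 (0.288), Gtf2ird1 in KO replicate 2 (112.8), Med15 in KO replicate 2 (22.2), Med7 in Het replicate 1 (247.8), Polr3a in Het replicate 2 (44.5), Taf7l in Het replicate 3 (0.0603), Taf7l in KO replicate 1 (0.257) and Taf9b in KO replicate 3 (305.8). In CabZ GV oocytes these were, in RPM, Gtf2a1 in Het replicate 4 (62.7), Polr3gl in KO replicate 1 (0.599), Taf5l in KO replicate 2 (16.3) and Taf8 in KO replicate 1 (113.4). In CabZ 2-cell embryos these were, in RPM, Med1 in Het replicate 1 (58.1), Med12l in Het replicate 3 (6.24), Med13l in Het replicate 4 (22.6), Polr2k in KO replicate 3 (11.0) and Taf3 in Het replicate 2 (128.5). Polr2k in KO replicate 3 of the 2-cell embryos was the highest of its group and still below all Het libraries. A flag can rest on a small gap, since only the gap relative to the range counts. Med1 in Het replicate 1 of the 2-cell embryos was at 58.09 RPM, against 56.25 to 56.38 in the other 3 Het libraries. Taf7l in Het replicate 3 of the ZH oocytes was at 0.0603 RPM, against 0 in the other 3.

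The Cabin1 fold change in 2-cell embryos minus that in GV oocytes passed the test of the difference itself in 45 members. Of these, the 22 that the reporting rule takes in either comparison follow. The difference on the log2 scale was -2.74 for Polr2k, -2.65 for Med29, -2.37 for Polr2e, -2.36 for Polr2h, -2.11 for Nelfe, -1.98 for Taf1b, -1.86 for Supt4a, -1.79 for Med8, -1.66 for Polr3a, -1.50 for Taf7, -1.35 for Taf9, -1.27 for Supt20, -1.15 for Med31 and -0.80 for Med13. It was positive for Gtf2a1l (1.99), Taf9b (1.82), Gtf2a2 (1.62), Gtf2ird1 (1.39), Taf3 (1.23), Med28 (1.05), Gtf2a1 (0.78) and Taf6 (0.76).

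The Hira fold change minus the Cabin1 fold change in GV oocytes passed the same test in 25 members. Of these, the 18 that the reporting rule takes in either comparison follow. With both scaled to the listed genes 20 members passed. The difference on the log2 scale was -1.85 for Med15, -1.83 for Nelfa, -1.80 for Taf3, -1.16 for Gtf2f1, -1.09 for Gtf2a1, -1.09 for Taf6l, -1.09 for Taf6, -1.02 for Taf5, -1.005 for Med31, -0.98 for Supt20, -0.90 for Nelfe, -0.88 for Taf8 and -0.78 for Taf1b. It was positive for Polr2h (1.51), Taf1d (0.92), Supt4a (0.84), Polr2f (0.80) and Taf9 (0.75).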

How the results depend on the processing

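The alternatives changed the pseudocount, the filter, the scale, the scaling of the libraries, the limma trend, the replicate block and the libraries used, 1 at a time, except that log2(FPKM + 1) came with its own filter, a mean of at least 1 FPKM. The counts of members that moved by over 1.5 times were few. In ZH oocytes 13 members rose with the libraries shifted to 1 median, 17 fell on log2(FPKM + 1), and 11 (pseudocount 5) or 5 (log2(FPKM + 1)) were past 2-fold. In CabZ GV oocytes 0 were past 2-fold with a pseudocount of 5 and on log2(FPKM + 1), and in CabZ 2-cell embryos 21 on log2(FPKM + 1). A pseudocount of 5 shrinks the fold changes of low genes by construction. On log2(FPKM + 1) 62 members were tested in ZH oocytes, 65 in CabZ GV oocytes and 66 in CabZ 2-cell embryos, against 85, 87 and 94, so that the scale and the filter cannot be told apart. The cause of the other moves was not tested. With a −log10 q of at least 5, the ATAC peaks at members' start sites numbered 0, 4 and 24 in Het A, B and C and 2, 0 and 0 in KO A, B and C. The shares were 0, 3.96 and 23.8% in Het, beside 0.729, 3.89 and 18.3% of all protein-coding genes, and 1.98, 0 and 0% in KO, beside 2.87, 0.354 and 0.410%, so that the members were below all genes in Het A and in the KO libraries. Within 1000 bases, Het B had 27.7% of members and 28.1% of genes, and the members were above all genes in the other libraries.

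When single libraries were left out, the range was 6 to 11 higher and 21 to 32 lower in ZH oocytes, 1 to 3 higher, 1 to 3 lower and 0 to 1 past 2-fold in CabZ GV oocytes, 7 to 10 higher and 36 to 45 lower in CabZ 2-cell embryos, and 0 to 1 higher and 0 to 1 past 2-fold after Zscan4. Whether the replicate numbers pair the libraries was not settled, because differently numbered libraries were not correlated for comparison. The correlation of same-numbered deviations was between -0.42 and 0.41 in ZH oocytes, -0.11 and 0.19 in CabZ GV oocytes, -0.07 and 0.13 in CabZ 2-cell embryos and -0.19 and 0.13 after injection. With the replicate block 8 rose and 27 fell in ZH oocytes, 2 and 2 in CabZ GV oocytes, 9 and 40 in CabZ 2-cell embryos, and 0 and 0 after Zscan4, and the differences between fold changes numbered 40 (Cabin1 by stage) and 23 (Hira and Cabin1).

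Over all tested members, 18 in ZH oocytes, 28 in CabZ GV oocytes, 7 in CabZ 2-cell embryos and 21 after Zscan4 changed sign under some alternative, of which 0 had passed the test. Those that the reporting rule takes follow. In ZH oocytes they were Polr3a (log2 0.085 with the libraries shifted to 1 median and 0.033 scaled to the listed genes), Taf7 (0.16 and 0.11), Taf9b (0.087 and 0.035) and Supt16 (0.028, shifted). With the median shift, Supt4a was at -8.897e-05 in CabZ GV oocytes, Taf4 at 0.17 in CabZ 2-cell embryos, and Gtf2a1, Taf4 and Taf4b at -0.061, -0.10 and -0.035 after Zscan4. Med13l after Zscan4 was at 0.014 (pseudocount 5) and 0.066 (replicate block), and Taf6l at -0.011 (replicate block). Without single libraries the log2 fold changes ranged, in ZH oocytes, from -0.10 to 0.10 (Gtf2ird1), -0.17 to 0.10 (Med14), -0.25 to 0.016 (Polr3a), -0.40 to 0.11 (Supt16) and -0.11 to 0.0061 (Taf7). In CabZ GV oocytes they ranged from -0.10 to 0.062 (Gtf2a1), -0.014 to 0.16 (Gtf2ird1), -0.25 to 0.019 (Med13l), -0.16 to 0.32 (Supt16), -0.12 to 0.10 (Supt4a), -0.084 to 0.33 (Taf1) and -0.34 to 0.045 (Taf4), and in CabZ 2-cell embryos from -0.26 to 0.17 (Taf4) and -0.88 to 0.13 (Taf7l). After Zscan4 they ranged from -0.092 to 0.17 (Gtf2a1), -0.022 to 0.37 (Med12l), -0.12 to 0.31 (Med13l), -0.19 to 0.052 (Med14), -0.37 to 0.11 (Taf1), -0.22 to 0.38 (Taf4), -0.062 to 0.18 (Taf4b), -0.011 to 0.30 (Taf6l) and -0.021 to 0.48 (Taf7). Depth limits the low members, since Gtf2a1l had an estimated 2 to 29 reads in Het 2-cell libraries.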
